A study of Mus musculus with 2 samples.

Results

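Sertoli cells are the supporting cells of the testis. They enclose the germ cells in cords, and in the fetus they divide while the cords grow. A group of 200 nuclei with the RNA of both Sertoli cells and dividing cells was examined in testes of mouse embryos at stage E14.5. The members were selected on their own RNA. Of the 9833 barcodes in the deposited matrix, 7492 had 2000 to 50000 RNA molecules (UMIs), less than 10% mitochondrial UMIs and more than 500 transposase cuts at peaks. These were ranked by the summed UMI share of 10 Sertoli genes (*Sox9*, *Amh*, *Dmrt1*, *Aard*, *Sox8*, *Ptgds*, *Col9a3*, *Hsd17b3*, *Fshr* and *Adamts16*), and the top 600 were kept. The 600 were ranked by the summed share of 7 genes of dividing cells (*Mki67*, *Top2a*, *Aspm*, *Knl1*, *Neil3*, *Ckap2l* and *Cenpf*). The highest 200 are the cycling Sertoli nuclei, and the other 400 are the comparison.

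Whole testes came from embryos that carried *Nr5a1-cre* and *Rosa-tdTomato*, and no source used here gives the number of embryos. The *Nr5a1* promoter drives the Cre in steroidogenic and supporting cells of the gonad, and every nucleus compared here shares this background. RNA and open chromatin (ATAC, in which a transposase cuts accessible DNA) were read from the same nuclei by 10x multiome, giving 1 RNA and 1 ATAC library. Without replicate libraries no test between animals was possible. Each ratio has an exact 95% interval, which reflects counting error alone, and a gene is counted as past a fold, never as tested.

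A dividing cell passes through S phase, when DNA is copied, and G2, when the copied genome is checked, and enters mitosis (M), when chromosomes are condensed, attached to the spindle through kinetochores and separated. Genes for copying DNA are largely switched on by E2F factors at the start of S phase. Genes for mitosis come on later, and many are controlled through a promoter element called CHR (cell cycle genes homology region), bound by MuvB complexes, together with CCAAT boxes bound by the factor NF-Y. Cyclin-dependent kinases drive these steps, and inhibitors such as the CIP/KIP and INK4 proteins hold them back.

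The 180 bases before the annotated start are shown for 4 genes high in the members, because these promoters carry the elements named above. The genes are *Top2a* (topoisomerase that untangles DNA), *Mki67* (coat of mitotic chromosomes), *Ccnb1* (cyclin B1, which starts mitosis with its kinase) and *Cdk1* (that kinase). Sequences are from RefSeq, GRCm38.p6, at chr11:99024190-99024369 for *Top2a*, chr7:135716380-135716559 for *Mki67*, chr13:100786487-100786666 for *Ccnb1* and chr10:69352913-69353092 for *Cdk1*. All 4 genes lie on the minus strand, and each sequence is written 5′ to 3′ along its gene. Capitals mark CCAAT or its complement ATTGG, and the CHR letters TTTGAA, their complement TTCAAA, or the variant TTTAAA, which is its own complement.
Top2a: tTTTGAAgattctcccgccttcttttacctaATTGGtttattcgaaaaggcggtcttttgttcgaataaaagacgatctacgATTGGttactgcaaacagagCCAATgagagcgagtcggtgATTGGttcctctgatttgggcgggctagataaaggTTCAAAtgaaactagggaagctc
Mki67: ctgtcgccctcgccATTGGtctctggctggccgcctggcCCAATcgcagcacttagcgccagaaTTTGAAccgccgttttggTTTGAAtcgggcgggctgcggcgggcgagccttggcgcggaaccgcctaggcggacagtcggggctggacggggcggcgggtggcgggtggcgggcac
Ccnb1: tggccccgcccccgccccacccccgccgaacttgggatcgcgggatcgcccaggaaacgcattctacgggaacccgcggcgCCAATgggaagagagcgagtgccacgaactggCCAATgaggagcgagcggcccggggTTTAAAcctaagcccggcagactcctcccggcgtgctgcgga
Cdk1: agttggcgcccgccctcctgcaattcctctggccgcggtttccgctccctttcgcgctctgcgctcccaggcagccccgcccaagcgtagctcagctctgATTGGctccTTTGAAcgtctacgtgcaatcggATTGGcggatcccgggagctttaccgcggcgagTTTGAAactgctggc

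The windows of *Mki67*, *Ccnb1* and *Cdk1* each held 2 CCAAT boxes, and that of *Top2a* held 4. In *Ccnb1* the CHR letters began 42 bases before the start, and in *Cdk1* the nearer of 2 began 15 bases before it. Over 250 bases before the start, searched on both strands, CHR (TTTGAA) was in 18 of 48 windows of the G2/M list (37.5%), a widely used list of genes of the late cell cycle without the ranking genes, in which 43 of 50 genes had a window. It was in 5 of 35 windows of the S-phase list (14.3%), in which 31 of 43 genes had a window. Of all 32851 promoter windows, 16% held it. Not every mitotic list was rich in it, since it was in 7 of 21 windows of the spindle and cytokinesis list (33.3%) but in 3 of 20 of the kinetochore and checkpoint list (15%). A CCAAT box was in 72.9% of G2/M windows, 65.7% of S-phase windows and 33.8% of all. At least 2 were in 24 of 48 G2/M windows, 34.3% of S-phase windows and 10.1% of all windows. E2F letters (TTTCCCGC or TTTGGCGC) were in 4.17% of G2/M windows, 25.7% of S-phase windows, 9.09% of fork and nucleotide windows and 1.30% of all. They were in 4 of 11 origin licensing windows (36.4%) and 0 of 20 kinetochore and checkpoint windows. In the spindle and cytokinesis list they were in 2 of 21 (9.52%), so this contrast too did not hold for every mitotic list. A gene with several starts has several windows, none of these strings contains another, and a match describes the letters, not a bound factor.

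The values that chose the members come first and are a description. Of the 7 cycle genes summed, the members held 1912 counts per 1000000 UMIs (CPM) and the others 102 CPM. For *Top2a* the summed level was 531 CPM in members and 23.6 CPM in the others. *Mki67* stood at 390 CPM against 38.3 CPM. *Knl1*, which builds the outer kinetochore, stood at 344 CPM against 8.31 CPM, and *Neil3*, a DNA glycosylase, at 136 CPM against 1.61 CPM. All 7 were at least 10.2 times as high in members. The ranking requires only that their summed share be higher, but each gene is part of that sum.

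The boundary between members and others was thin. The share of the 7 genes ran from 0.5136% of a nucleus's UMIs at rank 1 to 0.1824% at rank 100 and 0.0372% at ranks 200 and 201, with 0.0375% just inside at rank 199 and 0.0362% just outside at rank 202. The nucleus at rank 200 held 1 UMI of these genes among 2685, and the one at rank 201 held 2 among 5371. Members held a median of 23 such UMIs (range 1 to 82) and the others a median of 1 (0 to 6), with none in 177 of the 400. The Sertoli limit was equally gradual, at 0.2214% for ranks 600 and 601 and 0.1886% at rank 700. After each nucleus was thinned to 2000 UMIs before ranking, 113 of the 200 members were chosen again. At ranks 200 and 201 membership was thus set by a few molecules, whereas the count after thinning covers all ranks and not only those near the limit.

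Members were deeper than the comparison. They had a median of 11206 UMIs (2146 to 42595) and the others 8830 (2185 to 25843), and a median of 4046 against 3481 genes. Mitochondrial UMIs made up a median of 0.920% in members and 0.916% in the others. Scrublet, a doublet score, passed its own automatic threshold in 18 of 200 members (9.0%, exact interval 5.42 to 13.9%) and in 8.25% of the others, against 17.2% of all kept nuclei. Within the members it did so in 4 of the 100 ranked highest and 14 of the 100 ranked next. The part of doublets in the values of ranks 101 to 200 was not tested. A separate alternative removed the 449 nuclei with the highest scores before ranking, 5.99% of those kept. These held 7 members and 16 of the others, so most of the 18 members past the automatic threshold stayed in. The ratio of members to others was then 4.71 for the G2/M list and 1.87 for the S-phase list, beside 4.53 and 1.91 with all nuclei. Removal of every nucleus past the automatic threshold was not tested.

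The label of Sertoli cell was checked on 26 further Sertoli genes that the ranking did not use. Their summed level was 11153 CPM in members and 11918 CPM in the others, against 332 CPM in 600 nuclei ranked highest for germ cell genes and 1453 CPM in 600 ranked highest for interstitial genes. No nucleus was in more than 1 of the 3 sets of 600. By nucleus, the members ranged from 4140 to 17900 CPM with a median of 11448 CPM, and the others from 5165 to 21911 CPM with a median of 11916 CPM, so the ranges overlapped almost wholly. Sertoli genes outside the ranking were thus present in the members at close to the level of the others. Of the ranking's own genes, whose values the choice of nuclei fixed and which are given only as a description, *Sox9*, the factor that sets Sertoli fate, stood at 52.4 CPM in members, 53.6 CPM in the others and 3.50 CPM in germ-ranked nuclei. *Amh*, the hormone that removes the female ducts, stood at 70.7 CPM, 91.4 CPM and 20.1 CPM. At 2000 UMIs a nucleus, *Amh* was seen in 13.0% of members (8.67 to 18.5%), 15.8% of others and 4.67% of germ-ranked nuclei, whose median depth before thinning was 14282 UMIs. Before thinning these shares were 53.0%, 53.5% and 23.7%. The source of *Amh* UMIs in germ-ranked nuclei was not tested.

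Markers of other cell types were read as whole lists. The 6 germ markers summed to 50 CPM in members and 34.0 CPM in the others, a ratio of 1.47 (1.14 to 1.90), against 2421 CPM in germ-ranked nuclei. They were at 26.1 CPM in ranks 1 to 100 and 75.5 CPM in ranks 101 to 200, where *Dazl*, an RNA-binding protein of germ cells, was at 39.4 CPM against 5.63 CPM in the 400 others. Germ markers were thus higher in members, through ranks 101 to 200. The 3 mesonephric markers summed to 25.8 CPM in members and 17.7 CPM in the others (ratio 1.46, 1.02 to 2.09). This sum was 13.1 CPM in ranks 1 to 100 and 39.4 CPM in ranks 101 to 200. By nucleus the third quartile was 0 in both sets, with a maximum of 1713 CPM in members and 456 CPM in the others. The 5 interstitial markers summed to 144 CPM in members and 165 CPM in the others, with 86.9 CPM in ranks 1 to 100 and 204 CPM in ranks 101 to 200. The 5 Leydig markers, genes of steroid synthesis and their hormone, summed to 254 CPM in members and 312 CPM in the others, with 186 CPM in ranks 1 to 100 and 327 CPM in ranks 101 to 200, beside 203 CPM in germ-ranked and 359 CPM in interstitial-ranked nuclei. All of these lists were higher in ranks 101 to 200, where the S-phase list was also highest, and their part in that result was not tested. The 4 pericyte markers summed to 38.1 CPM in members and 36.5 CPM in the others, the 4 epithelial markers to 83.0 and 96.5 CPM, the 5 endothelial markers to 41.7 and 37.8 CPM, the 3 contractile markers to 33.7 and 40.5 CPM, the 5 erythroid markers to 93.3 and 109 CPM and the 3 immune markers to 1.98 and 3.75 CPM. Within these lists *Ptprc* (immune), *Steap4* (pericyte) and *Msln* (epithelial) were at 0 in members. Their lists as a whole were not at 0, and nothing is read from these single genes. *Pax8*, of supporting-like cells, was at 2.38 CPM in members and 9.65 CPM in the others. Without the 60 of the 600 nuclei highest in markers of other classes, the ratio was 4.67 for the G2/M list and 1.87 for the S-phase list.

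Across all genes, 7506 had at least 100 UMIs over both sets, and the median ratio of members to others was 0.978. Of these, 252 were at least 2-fold higher in members (3.36%) and 52 at least 2-fold lower (0.693%). These counts depended on the settings. They were 44 and 4 after thinning to 2000 UMIs before ranking, 168 and 15 in a top 400, and 150 and 44 among nuclei of 8000 to 12000 UMIs. With a minimum of 50 UMIs they were 342 and 138, with one of 200 they were 158 and 15, and for the highest 100 against 500 they were 221 and 196. Of the 252 genes, 102 were in the cycle lists, among them the 7 ranking genes, and 148 were in no list. The 52 held no gene of the cycle lists. The share of cycle-list genes among all 7506 is not given, so nothing is read from this split. The contrast is the one the ranking made, so these counts describe the ranking and are no separate evidence that the members cycle.

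Genes of mitosis stood furthest apart. The ranking itself used genes of mitotic chromosomes and kinetochores, such as *Mki67* and *Knl1*. The order of the cycle lists below is therefore not independent of the choice of nuclei and is a description. Of 24 spindle and cytokinesis genes 21 reached 100 UMIs, and all 21 were past 2-fold, against 3.36% of all genes, with a median ratio of 20.8 and values from 6.40 to 161. Genes that reached 100 UMIs through the members alone were bound to be past 2-fold higher. Nothing is therefore read from this count, and the same limit holds for the counts of the other cycle lists below. *Kif14*, a kinesin of the dividing cell's midbody, had 218 UMIs in members and 2 in the others, or 86.5 against 0.536 CPM. The ratio was 161 (44.2 to 1342). *Kif4*, which organizes the central spindle, was at 225 CPM against 4.02 CPM. *Kif11*, the motor that pushes spindle poles apart, was at 333 CPM against 9.38 CPM, a ratio of 35.5 (25.4 to 51.4). At 2000 UMIs it was seen in 45.5% of members and 2.5% of others. *Plk4*, which starts centriole copying, had the smallest ratio of the list, 6.40 (4.73 to 8.80).

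Of 18 kinetochore and checkpoint genes 16 reached 100 UMIs, and all 16 were past 2-fold higher, beside 3.36% of all genes, with a median ratio of 11.4. Here too genes could reach 100 UMIs through the members alone, and nothing is read from the count. *Cenpa*, the histone that marks centromeres, was at 95.3 CPM in members and 2.95 CPM in the others (ratio 32.3, 17.7 to 65.6). *Bub1*, a kinase of the spindle checkpoint, was at 171 CPM against 9.38 CPM. *Cenpp*, a constitutive centromere protein, was at 605 CPM against 80.4 CPM, and *Bub3*, whose protein also works outside mitosis, had the smallest ratio, 2.58 (2.01 to 3.33).

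In the G2/M list 37 of 40 genes that reached 100 UMIs were past 2-fold higher, beside 3.36% of all genes, with a median ratio of 9.42. Summed, the list stood at 7371 CPM in members and 1628 CPM in the others, a ratio of 4.53 (4.40 to 4.66). *Nusap1*, which binds spindle microtubules, was at 172 CPM against 3.75 CPM (ratio 45.9, 27.1 to 84.7), and *Hmmr*, another spindle protein, at 145 CPM against 3.22 CPM. The smallest ratios were those of *Cbx5* (1.56), a heterochromatin protein, and *Ctcf* (1.45, 1.29 to 1.62), which organizes chromatin loops in all cells. By nucleus the list ranged from 375 to 13451 CPM in members, with a median of 7178 CPM. In the others it ranged from 168 to 4834 CPM, with a median of 1499 CPM, so the quartiles were apart and the ranges overlapped.

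**Figure D1:**
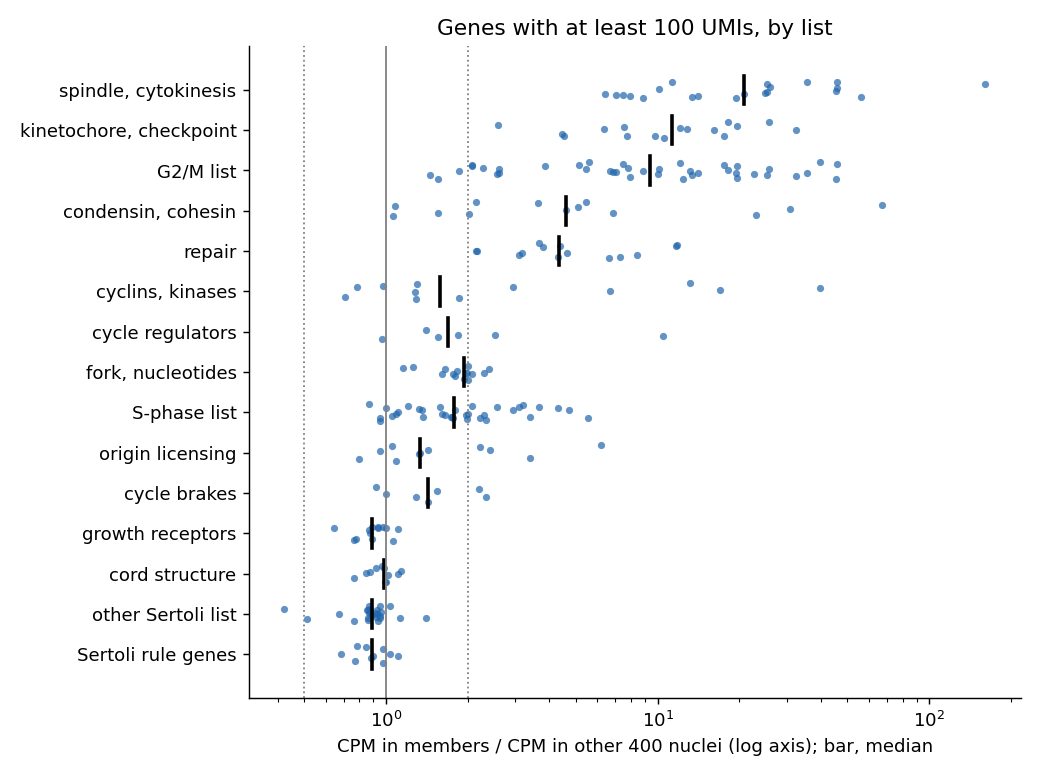
Ratio of CPM in the 200 members to CPM in the other 400 nuclei (log axis) for each gene with at least 100 UMIs, by list, with the median as a bar and dotted lines at 0.5 and 2. The spindle and cytokinesis list has its median at 20.8, the S-phase list at 1.79 and the other Sertoli list at 0.892.

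Genes that copy DNA differed less. The S-phase list stood at 3743 CPM in members and 1965 CPM in the others, a ratio of 1.91 (1.85 to 1.96), and 13 of its 34 genes with 100 UMIs were past 2-fold higher, beside 3.36% of all genes (median 1.79). *Clspn*, which relays signals from stalled forks, was at 86.1 CPM against 15.5 CPM, a ratio of 5.54 (4.13 to 7.54). *Pola1*, the polymerase that starts new strands, was at 621 CPM against 313 CPM. *Pcna*, the clamp that holds polymerases on DNA, was at 29.8 CPM against 18.5 CPM (ratio 1.61, 1.15 to 2.27). *Ung*, which removes uracil from DNA, had the smallest ratio, 0.866, with an interval that crossed 1 (0.564 to 1.31).

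Origin licensing, the loading of MCM helicases before S phase, had the smallest median ratio of the cycle lists. Of 11 genes with 100 UMIs, 4 were past 2-fold higher, beside 3.36% of all genes, and the median ratio was 1.34. *Mcm10*, which acts when origins fire, was at 51.6 CPM against 8.31 CPM (ratio 6.21, 4.17 to 9.51). For *Mcm6* and *Mcm2*, subunits of the helicase itself, the interval over all members crossed 1. *Mcm6* was at 92.1 CPM against 97.0 CPM (ratio 0.949, 0.801 to 1.12), and *Mcm2* had the smallest ratio of the list, 0.796 (0.515 to 1.21). The value of *Mcm6* is a mean over members that differed by rank, as given below. The fork and nucleotide list had 4 of 15 genes past 2-fold higher, beside 3.36% of all genes, led by *Pole*, the leading-strand polymerase, at 92.1 CPM against 38.3 CPM (ratio 2.40, 1.94 to 2.98).

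The order of the ranking separated the 2 lists. Because the ranking genes include genes of mitosis, a fall of the G2/M list with rank is built into the ranking and is given as a description. The 100 members ranked highest held 9928 CPM of the G2/M list (9758 to 10101) and 3158 CPM of the S-phase list (3062 to 3256). The 100 ranked next held 4643 CPM of the G2/M list but 4366 CPM of the S-phase list (4250 to 4485), the highest of the 6 bins of 100. The 400 others held 1499 to 1755 CPM of the G2/M list and 1760 to 2297 CPM of the S-phase list in their 4 bins. *Mcm6* was at 43.1 CPM in ranks 1 to 100 and 144 CPM in ranks 101 to 200, *Pcna* at 12.3 and 48.4 CPM, and *Ccne2*, the cyclin of S-phase entry, at 15.4 and 63.2 CPM. *Kif18a*, which aligns chromosomes, ran the other way, at 275 and 55.0 CPM. Repair genes were level, at 2796 and 2778 CPM, and fork and nucleotide genes followed the S-phase list. The ratio of ranks 1 to 100 over ranks 101 to 200 was 2.14 (2.07 to 2.21) for the G2/M list and 0.723 (0.694 to 0.753) for the S-phase list.

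**Figure D2:**
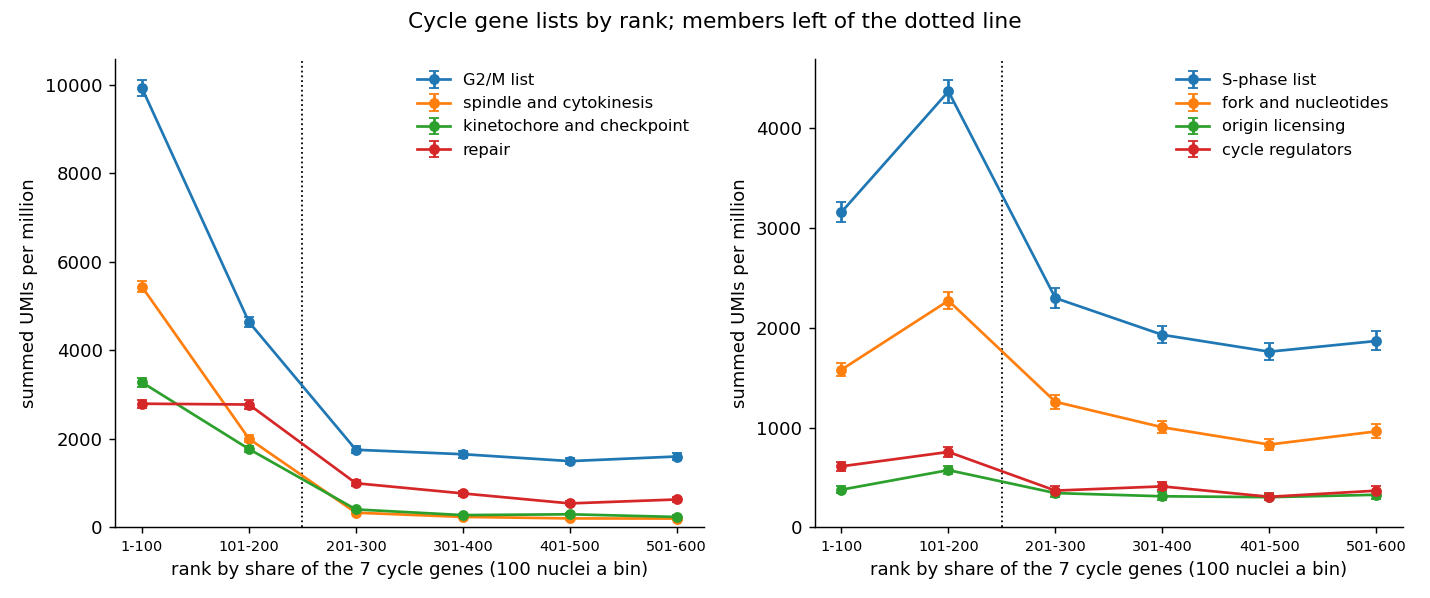
Summed CPM of 8 cycle lists in bins of 100 nuclei ordered by share of the 7 cycle genes, with 95% counting intervals. Left of the dotted line are the members. The G2/M list goes from 9928 to 4643 CPM between the first bins while the S-phase list goes from 3158 to 4366 CPM.

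Single nuclei were set against limits at the 95th percentile of the 400 others. These are 2841 CPM for the G2/M list and 5930 CPM for the S-phase list, and by construction 20 of the others were above each. The others were not free of S-phase RNA, with 119 to 9608 CPM of this list by nucleus and a median of 1176 CPM. The S-phase limit was thus drawn from a set that itself held nuclei high in this list. Counts above it are not counts of nuclei in S phase. Of the 200 members, 165 were above the first and 52 above the second, with 120 above the G2/M limit alone, 45 above both, 7 above the S-phase limit alone and 28 above neither. Of the 20 others above the S-phase limit, 10 were also above the G2/M limit, so nothing is read from the 7 members. All 100 members ranked highest were above the G2/M limit. Of the 52 above the S-phase limit, 41 were in ranks 101 to 200. Within 10% of a limit lay 13 members for G2/M and 22 for S phase, so the classes are ranges of a score. After thinning to 2000 UMIs the counts were 126, 29, 10 and 35 in the same order. The 28 members above neither limit had a median of 7434 UMIs and a median rank of 180.

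**Figure D3:**
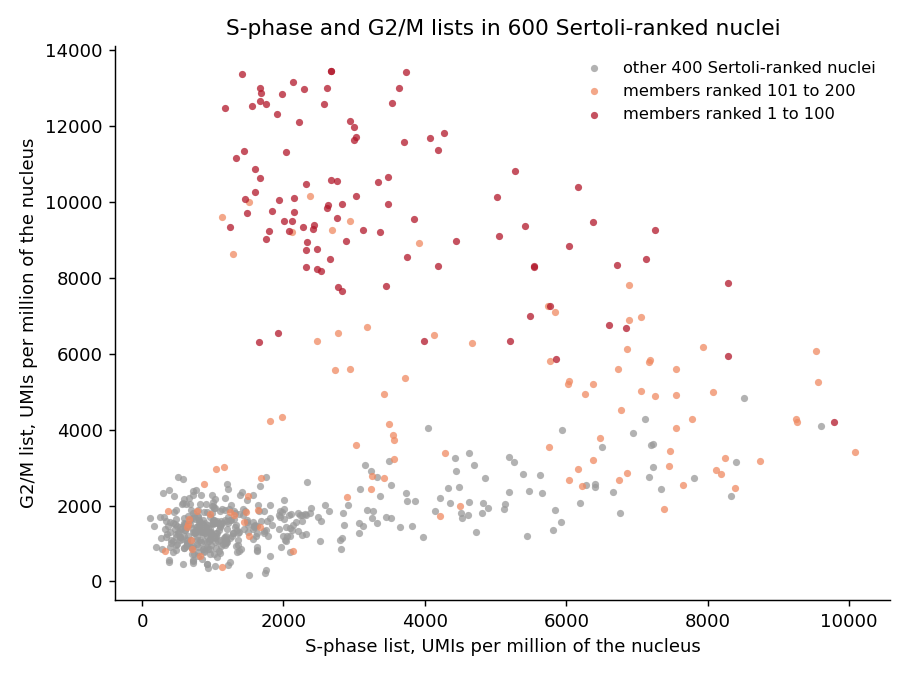
S-phase list (x axis) and G2/M list (y axis), in CPM of each nucleus, for the 600 Sertoli-ranked nuclei. Members ranked 1 to 100 lie high on the G2/M axis, members ranked 101 to 200 extend along the S-phase axis to 10086 CPM, and most of the others lie near the origin around a median of 1499 CPM for G2/M. Some of the others also extend along the S-phase axis, to 9608 CPM.

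Of 18 genes for cyclins, their kinases and the enzymes that switch these, 12 had 100 UMIs, and 5 of the 12 were past 2-fold higher, beside 3.36% of all genes. *Cdc25c*, the phosphatase that activates CDK1, was at 53.2 CPM against 1.34 CPM (ratio 39.7, 16.6 to 124). *Ccnf*, a cyclin of the ubiquitin ligase SCF, was at 81.8 CPM against 4.82 CPM. *Ccnb1*, whose promoter is shown above, was at 33.3 CPM against 2.14 CPM, and *Cdk1* at 84.6 CPM against 12.6 CPM (ratio 6.71, 4.87 to 9.41). The smallest ratios were those of *Cdk6* and *Ccnd2*. *Ccnd2*, a D-type cyclin, was at 120 CPM in members and 153 CPM in the others (ratio 0.786, 0.681 to 0.905), and its kinase *Cdk6* at 107 CPM and 151 CPM, with the smallest ratio, 0.705 (0.608 to 0.817). Of their relatives, *Ccnd3* was at 48.0 and 49.3 CPM, and *Cdk4*, the other kinase of D-type cyclins, at 35.3 and 27.6 CPM (ratio 1.28, 0.953 to 1.72).

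Of the regulators, *E2f7*, a repressor of the E2F family, was at 73.0 CPM against 6.97 CPM (ratio 10.5, 6.93 to 16.5). *E2f8*, its relative, had 53 UMIs in members and 2 in the others. *Foxm1*, a factor for mitotic genes, had 67 and 4 UMIs, or 26.6 against 1.07 CPM (ratio 24.8, 9.25 to 93.7). *Lin54*, the MuvB subunit that contacts the CHR, was at 83.8 CPM against 33.2 CPM (ratio 2.52, 2.01 to 3.17). *E2f1* was at 16.7 CPM in members, with an interval of the ratio from 0.751 to 1.76, and *Mycn* at 7.94 and 12.9 CPM (ratio 0.617, 0.347 to 1.06).

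Brakes of the cycle summed to 464 CPM in members and 317 CPM in the others, a ratio of 1.46 (1.35 to 1.59). Of 16 genes 7 reached 100 UMIs, of which 6 had a ratio above 1, beside 45.4% of all genes tested. Past 2-fold were 2, both higher, beside 3.36% of all genes. *Ccng2*, a cyclin linked to arrest, was at 38.1 CPM against 16.3 CPM (ratio 2.33, 1.67 to 3.27), and *Rbl1* (p107, of the retinoblastoma family) at 106 CPM against 47.7 CPM. *Rb1* was at 129 and 83.4 CPM, and *Rbl2* (p130) at 43.3 and 46.9 CPM (ratio 0.923, 0.720 to 1.18). *Cdkn1b* (p27), which is known for the arrest of Sertoli cells after birth, was at 21.4 and 15.0 CPM (ratio 1.43, 0.964 to 2.11), and *Cdkn1c* (p57) at 11.1 and 11 CPM. *Cdkn2c* (p18) had 16 UMIs in members and none in the others. Against the limit of 3 counts that a count of 0 allows over the 400 nuclei, the level in members is 7.90 times as high. This value leaves out the counting error of the 16 UMIs. *Cdkn2b* was not seen in either set, and *Cdkn1a* had 2 and 1 UMIs.

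Of 16 repair genes 14 reached 100 UMIs, and all 14 were past 2-fold higher, beside 3.36% of all genes, with a median ratio of 4.33. *Fanci*, of the crosslink repair pathway, was at 50.4 CPM against 4.29 CPM (ratio 11.8, 6.97 to 21.2). *Bard1*, the partner of BRCA1, was at 204 CPM against 17.4 CPM. *Brca1* was at 229 CPM against 52.5 CPM, and *Atad5*, which unloads the PCNA clamp, had the smallest ratio, 2.14 (1.83 to 2.5). Of 14 condensin and cohesin genes 13 had 100 UMIs, and 10 were past 2-fold higher, beside 3.36% of all genes. *Ncapg*, of condensin I, was at 156 CPM against 5.09 CPM (ratio 30.6, 19.3 to 51.3), and *Espl1*, the separase that cuts cohesin, had 136 and 3 UMIs. The smallest ratios were those of 2 cohesin genes, with *Smc3* at 125 and 118 CPM (ratio 1.06, 0.915 to 1.23) and *Stag2* at 417 and 386 CPM.

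Outside the lists, genes were named by the nearer limit of the interval. *Depdc1b* had 161 and 2 UMIs (63.9 against 0.536 CPM), *Iqgap3* 148 and 2, and *Depdc1a* 320 and 9. *Cep55*, of the midbody, was at 99.2 CPM against 2.95 CPM, and *Knstrn*, of the kinetochore, at 54.0 CPM against 1.61 CPM. *Kifc1*, a minus-end kinesin, was at 65.9 CPM against 2.68 CPM, *Spag5*, of the spindle, at 69.5 CPM against 3.22 CPM, and *Cit*, a kinase of the midbody, at 183 CPM against 11.5 CPM. *Lockd* was at 98.8 CPM against 4.02 CPM (ratio 24.6, 14.6 to 44.6). It is a long noncoding RNA at GRCm38 chromosome 6, 134929092 to 134956798, on the plus strand.

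Of the genes lower in members, the 10 named by the same rule follow. *Wwc1* (KIBRA, of the Hippo pathway) was at 20.6 CPM in members and 57.1 CPM in the others, a ratio of 0.362 (0.262 to 0.492). *Ank3*, a membrane anchor, was at 102 CPM against 225 CPM (ratio 0.455, 0.395 to 0.524). *Sulf1*, a heparan sulfatase, was at 22.2 CPM against 53.3 CPM, *Sntb1*, a syntrophin, at 39.7 CPM against 83.6 CPM, *Bmpr1b*, a BMP receptor, at 32.9 CPM against 68.6 CPM, and *Zbtb7c* at 39.7 CPM against 83.1 CPM. *Slc25a21*, a mitochondrial carrier, was at 38.5 CPM against 81.7 CPM. *Cemip*, which degrades hyaluronan, was at 79.8 CPM against 155 CPM, and *Mme*, a membrane peptidase, at 65.5 CPM against 127 CPM. The antisense RNA *9530026P05Rik* was at 82.2 CPM against 165 CPM, and is uncertain because no source used here gives the strand setting of the count. *Ank3*, *Zbtb7c*, *Sulf1* and *Sntb1* were lower still in ranks 1 to 100 (70.8, 24.6, 15.4 and 30.8 CPM). In ranks 101 to 200 they were at 136, 55.8, 29.5 and 49.2 CPM, and the intervals of these ratios stayed below 1. For *Wwc1* (15.4 and 26.3 CPM) the interval crossed 1 (0.318 to 1.06), as it did for the remaining genes. *Bmpr1b* (35.4 and 30.4 CPM) and *9530026P05Rik* (83.1 and 81.2 CPM) were not lower in ranks 1 to 100.

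The 26 further Sertoli genes had a summed ratio of 0.936 (0.922 to 0.95), and over the 25 with 100 UMIs the median was 0.892, against 0.978 over all genes. None was past 2-fold higher and 1 was past 2-fold lower, beside 3.36% and 0.693% of all genes, so the counts do not set the list apart. Of the 25 genes 3 lay above 1, beside 45.4% of all genes tested. *Gdnf*, the factor that sustains spermatogonial stem cells, was the highest, at 175 CPM in members and 124 CPM in the others (ratio 1.41, 1.24 to 1.61). It was seen in 26% of members and 22.5% of others at 2000 UMIs. *Erbb4*, a receptor of neuregulins, was at 4518 and 4730 CPM, *Gata4*, a factor of gonadal somatic cells, at 1387 and 1456 CPM, and *Kitl*, the ligand of KIT on germ cells, at 861 and 906 CPM (ratio 0.951, 0.901 to 1.0). *Wt1*, which maintains Sertoli identity, was at 762 and 873 CPM (ratio 0.873, 0.824 to 0.924).

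The 4 smallest ratios among the further Sertoli genes were those of *Vnn1*, *Fgf9*, *Inha* and *Dhh*. *Fgf9*, which sustains *Sox9* in the early testis, was at 19.8 CPM in members and 38.6 CPM in the others (ratio 0.514, 0.365 to 0.714), and at 10.0 CPM in ranks 1 to 100 against 30.4 CPM in ranks 101 to 200. *Inha*, the inhibin alpha chain, was at 29.0 and 43.2 CPM (ratio 0.672, 0.502 to 0.891), while *Inhbb*, a beta chain, was at 97.7 and 93.5 CPM. *Dhh*, the hedgehog signal to Leydig and peritubular cells, was at 42.9 and 56.3 CPM (ratio 0.762, 0.598 to 0.965). *Vnn1*, a pantetheinase, was the gene past 2-fold lower, at 10.3 and 24.4 CPM (ratio 0.423, 0.263 to 0.661). *Cyp26b1*, which clears retinoic acid, was at 81.8 and 72.1 CPM with an interval that crossed 1 (0.941 to 1.37).

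The Sertoli genes of the ranking are given as a description. *Fshr*, the receptor of follicle-stimulating hormone, was at 364 and 329 CPM, and *Hsd17b3*, which makes testosterone from androstenedione, at 961 and 984 CPM. *Adamts16*, a matrix protease, was at 879 and 1121 CPM, and *Aard* had the smallest ratio, 0.686, at 171 and 250 CPM. Their sum was 2986 CPM in members and 3382 CPM in the others.

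**Figure D4:**
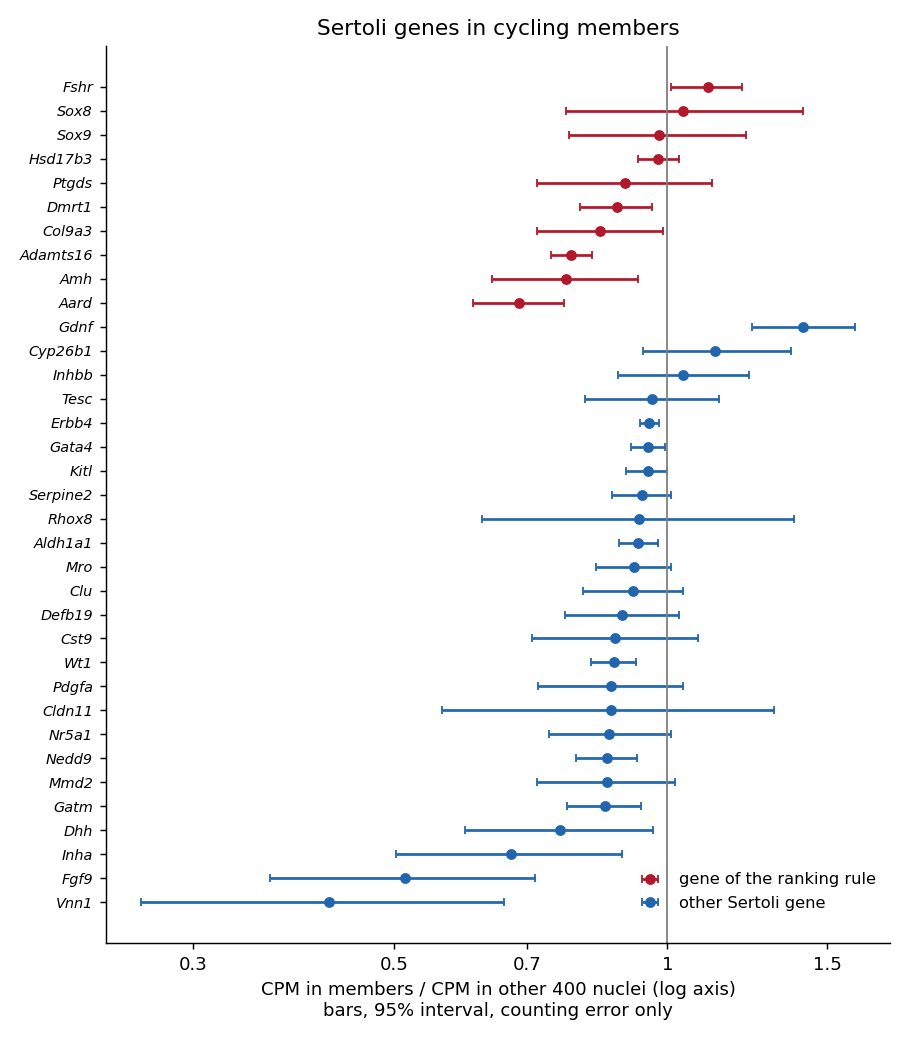
Ratio of CPM in the members to CPM in the other 400 nuclei (log axis) for Sertoli genes with at least 100 UMIs, coloured by whether the ranking used them, with 95% counting intervals. Of the 25 genes the ranking did not use, 3 lie above 1, beside 45.4% of all genes tested, with *Gdnf* at 1.41 and *Vnn1* at 0.423 at the ends.

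Of the receptors and effectors of Sertoli growth, 13 genes had 100 UMIs, with a median ratio of 0.893. None was past 2-fold, and with 3.36% of all genes past it upward and 0.693% downward, nothing is read from that count. *Igf1r*, the receptor of insulin-like growth factors, was at 730 and 782 CPM (ratio 0.934, 0.880 to 0.990). *Insr* was at 148 and 166 CPM, *Thra*, a thyroid hormone receptor, at 168 and 171 CPM, *Yap1*, the Hippo effector, at 341 and 364 CPM, and *Acvr2a*, an activin receptor, at 170 and 153 CPM (ratio 1.11, 0.973 to 1.26). *Esr1*, an oestrogen receptor, had the smallest ratio, at 39.3 and 61.1 CPM (0.643, 0.503 to 0.818). Genes of cord structure had a median ratio of 0.987 over 11 genes. None was past 2-fold, and nothing is read from this count either. *Itga6*, a laminin receptor, was at 867 and 763 CPM (ratio 1.14, 1.07 to 1.20), and *Lamc1*, a laminin chain of the basement membrane, at 100 and 131 CPM (ratio 0.765, 0.654 to 0.892).

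Chromatin was not used in either ranking beyond the filter on cuts. Members had a mean of 4999 unique fragments per nucleus and the others 4128, a ratio of 1.21. Medians were 4260 (quartiles 2178 to 6862) and 3478 (2047 to 5757), so the spread between nuclei was far larger than the difference. Depth moved with it, since mean UMIs were 12595 and 9328. Among nuclei with 8000 to 12000 UMIs, 77 members had a mean of 4196 fragments and 189 others a mean of 3957, and the medians were 3380 and 3432. In bins of 100 by rank the mean went from 4986 and 5012 in the members to 4701, 4392, 3711 and 3708 in the others. Fragments at peaks were 36.4% in members and 35.5% in the others, and fragments shorter than the DNA of 1 nucleosome were 59.0% and 59.2%.

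Promoter fragments were those with a cut from 1 kb before the first to 1 kb after the last transcription start deposited for a gene. They were scaled to the total of each set. A gene with starts far apart thus has a wide window that also takes in the bases between them. Such a gene reaches a minimum count more readily. Of 1484 genes with at least 100 such fragments, 2.76% were at least 1.5-fold higher in members and 1.75% at least 1.5-fold lower, and the median ratio was 1.03. At the G2/M list the members had 1289 fragments and the others 1849, which scaled to each set's total gave a ratio of 1.15 (1.07 to 1.24). Its RNA ratio was 4.53. Within 8000 to 12000 UMIs the ratio was 1.05, with an interval from 0.931 to 1.19. The S-phase list had a ratio of 1.06 (0.975 to 1.15), the spindle list 1.11 (0.979 to 1.26), cycle regulators 1.23 (1.06 to 1.42) and the further Sertoli genes 1.18 (1.07 to 1.30), so the intervals of the G2/M and Sertoli lists overlapped.

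For single genes the counts were small. *Top2a* had 12 promoter fragments in members and 18 in the others (ratio 1.10), *Cdk1* had 18 and 23 (1.29), *Ccnb1* 17 and 17 (1.65) and *Mki67* 30 and 36 (1.38). Of the 50 genes of the G2/M list, 5 had 100 promoter fragments, and none of these was past 1.5-fold. With 2.76% of all promoters past it upward and 1.75% downward, nothing is read from that count. *Wee1*, the kinase that restrains CDK1, was past it in the cyclin list, with 54 and 59 fragments (ratio 1.51).

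**Figure D5:**
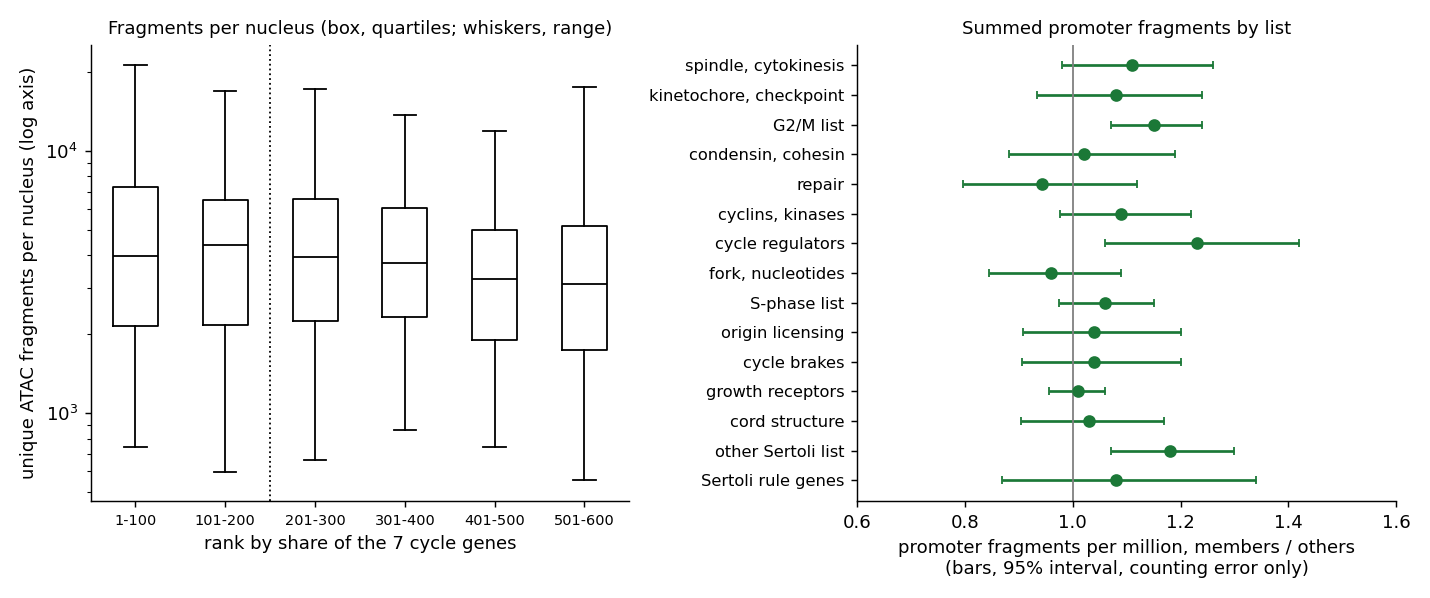
Left, unique ATAC fragments per nucleus (log axis) in bins of 100 nuclei by rank, as quartile boxes with whiskers over the whole range, members left of the dotted line. Right, ratio of summed promoter fragments, scaled to the total of each set, in members over the others by list, with 95% counting intervals. The medians of fragments run from 3968 and 4396 in the members to 3108 in the last bin, and the G2/M list has a promoter ratio of 1.15.

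Of 109215 peaks, 4693 had at least 40 fragments over both sets, and their median ratio was 1.05. The 3 highest by the nearer limit each lay within 219 bp of the start of a coding gene (mm10, which is GRCm38). The peak at chromosome 11, 52003794 to 52004710, covered the start of *Cdkl3*, a kinase related to the CDKs, and held 29 and 17 fragments (ratio 2.82, 1.5 to 5.47). That at chromosome 13, 41358571 to 41359485, overlapped an exon of *Nedd9*, a scaffold of focal adhesions, with 30 and 19 fragments (ratio 2.61), while the RNA of *Nedd9* stood at 400 and 467 CPM. That at chromosome 1, 111864501 to 111865333, lay 1 bp from the start of *Dsel*, with 34 and 23 fragments (ratio 2.44). Of the 3 lowest, one at chromosome 12, 116404854 to 116405755, lay 98 bp from the start of *Ncapg2*, a condensin II subunit, and overlapped *D430020J02Rik* too, with 12 and 56 fragments (ratio 0.354, 0.173 to 0.668), whereas its RNA was at 143 CPM in members and 27.9 CPM in the others. Another, at chromosome 5, 110839415 to 110840316, overlapped exons of *Chek2*, a checkpoint kinase, and *Hscb*, with 8 and 46 fragments. The last, at chromosome 17, 80482628 to 80483537, was intergenic, 3113 bp from *Sos1*, with 6 and 36 fragments. These were the extremes of 4693 peaks.

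The same split was made in the 2 other sets. Among germ-ranked nuclei the 200 highest for the 7 cycle genes held 6019 CPM of the G2/M list and the other 400 held 3767 CPM, a ratio of 1.6 (1.57 to 1.63). Among interstitial-ranked nuclei the values were 7577 and 1325 CPM, a ratio of 5.72 (5.49 to 5.96), beside 7371 and 1628 CPM in the Sertoli sets. The intervals of the 3 ratios did not overlap, but they cover counting error only. The split itself was weaker in germ-ranked nuclei. There the 7 ranking genes stood at 2488 and 572 CPM, a ratio of 4.35, beside 18.8 in the Sertoli and 17.8 in the interstitial sets. The sets also differ in median depth (11206 UMIs in the Sertoli members, 14122 in the cycling germ-ranked and 5942 in the cycling interstitial-ranked nuclei). The part of either in the G2/M ratios was not tested. For the S-phase list the ratios were 1.91 (1.85 to 1.96) in Sertoli, 1.63 (1.59 to 1.67) in germ and 1.77 (1.69 to 1.85) in interstitial nuclei. Repair genes were at 2788 CPM in the Sertoli members, 3253 CPM in cycling germ-ranked and 1817 CPM in cycling interstitial-ranked nuclei. *Gdnf*, higher in the Sertoli members, was at 2.63 and 2.79 CPM in the germ sets and 8.67 and 15.9 CPM in the interstitial sets.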

How the data were processed

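Nuclei of whole E14.5 testes were profiled by 10x multiome. The authors ran Cell Ranger ARC 2.0.1 (submitters' processing notes) on mm10 and deposited raw counts for called barcodes, as UMIs of each gene and transposase cuts in each peak. The deposited fragments are 1 line each after duplicates were collapsed, with the read pair count. The matrix holds 122049390 UMIs over 32285 genes, and the list 58448458 fragments, of which 54712501 belong to its barcodes. No doublets or ambient RNA were removed in the main values.

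Members were found by the ranking given above. The members, gene lists and comparisons were chosen with earlier results of these data known. UMIs were summed per set and divided by the set's total to give CPM. Ratios have exact conditional binomial intervals and shares exact Clopper-Pearson intervals at 95%. These take each UMI or fragment as independent and cover counting error only. No p-value was derived, because nuclei of 1 library do not replicate a condition. Fold calls needed 100 UMIs or 100 promoter fragments over both sets, so a gene could pass this filter through the members alone. The calculation of ratios was tested on simulated independent counts with known folds. That simulation had no spread between nuclei and no selection of nuclei on the same RNA, so it does not bear on either. Shares of nuclei with a UMI were taken after thinning to 2000 UMIs, and no kept nucleus was shallower. Doublet scores were from Scrublet in scanpy 1.11.5. Named genes were the ranking genes, the extremes of each list and genes whose role is explained, and, outside the lists, the 10 genes each way by the interval limit nearer 1, with at least 50 CPM in the higher set. A gene that this rule names is not reported here. Named peaks were the 3 each way among those with 40 fragments. Gene positions are from GENCODE vM21 by Ensembl ID, which held 32158 of 32285. Analyses used Python 3.11.15 with numpy 2.4.6 and scipy 1.17.1. The 13 alternatives are in the closing section, 2 of them added after the data were seen.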

Additional observations from a re-analysis of the deposited data

How the results depend on the processing

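There were 13 alternatives, 2 of them chosen after seeing the data, and not every one was run for every value. None reversed any of the 6 summary values below for which it was run. Against main values of 4.53 (G2/M list), 1.91 (S-phase list), 0.936 (further Sertoli genes), 304 genes past 2-fold, 1.21 (fragments per nucleus) and 1.15 (G2/M promoters), the values that left the counting interval, or moved a count by over 1.5 times, were these. Thinning to 2000 UMIs before ranking gave 3.62, 1.6, 48 genes (44 higher, 4 lower) and 1.35 for fragments, with 113 of 200 members shared. A top 400 gave 4.28 for G2/M, 183 genes (168 higher, 15 lower) and 1.26 for fragments, and a top 800 gave 1.63 for S phase, 0.910 for Sertoli genes and 1.35 for fragments. The highest 100 against 500 gave 4.19, 1.24, 0.964, 1.16 for fragments and 1.24 for promoters, with 221 genes higher and 196 lower. The highest 200 against the lowest 200 gave 4.77, 2.07, 0.915 and 1.35 for fragments. Ranking on the S-phase and G2/M lists gave 0.958 for Sertoli genes and 1.12 for fragments. The mean of nuclei gave 2.10 for S phase and 0.953 for Sertoli genes. A minimum of 50 UMIs gave 480 genes (342 higher, 138 lower) and one of 200 gave 173 (158 and 15). Removing the highest Scrublet scores gave 4.71 for G2/M and 1.26 for fragments, the thresholds of the study gave 1.22 for fragments, and leaving out the nuclei highest in other classes' markers (added) gave 4.67 and 1.22. Limiting both sets to 8000 to 12000 UMIs (added) gave 4.38, 2.27, 0.971, 194 genes (150 higher, 44 lower), 1.06 for fragments and 1.05 for promoters, and there the median of fragments was lower in members (3380 against 3432) although it was higher over all (4260 against 3478). Fewer genes reach 100 UMIs by construction under thinning, the top 400 and the depth limit. The cause of the other shifts was not tested. With 1 library for each assay there is no replicate to leave out. RNA and ATAC were read from the same nuclei, and their values are set side by side above as sums over each set. Their pairing nucleus by nucleus was not tested. Few cycle genes reached 100 promoter fragments.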
